A study of Mus musculus with 3 samples.

Results

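The 258 CpG island regions described here stood higher in H3K27me3 on both arrays of 23-week-old mice than on the array of 7-week-old mice. They were taken from 13729 autosomal regions, so 1.88% of all regions met the rule. A region was a run of at least 3 probes in which each probe started within 500 bp of the one before it. Its value was the median over its probes of the log2 ratio of immunoprecipitate to input, ranked among all regions of the same array and expressed as a percentile from 0 to 100. Members were selected on these percentiles: each lay at percentile 50 or higher on both 23-week arrays and at least 8 points above its own 7-week percentile on both. The rise of the members is therefore a description of the choice and carries no test. Both differences use the same 7-week array, and an error of that array enters both.

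H3K27me3 is histone H3 that carries 3 methyl groups on lysine 27. The EZH1 or EZH2 subunit of Polycomb repressive complex 2 writes it, and it is found mainly over CpG islands of genes that are silent in a given cell type, many of them developmental regulators. CpG islands are short stretches rich in CpG dinucleotides that lie at many promoters. In the intestinal epithelium, Polycomb repressive complex 2 is known to take part in the balance of stem cell renewal and differentiation.

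Chromatin came from male Balb/c mice, from epithelial cells of the colon that were obtained by crypt isolation, fixed with formaldehyde and sonicated. There were 3 groups with 1 array each, and each array held material pooled from 3 mice: untreated mice aged 7 weeks, untreated mice aged 23 weeks, and mice aged 23 weeks that had received 2% dextran sulfate sodium (DSS, which damages the colonic epithelium and causes colitis) for 1 week from the age of 7 weeks. On every array the immunoprecipitate was labelled with Cy5 and the whole-cell extract, which served as input, with Cy3. Pooling removes the spread between mice, so no comparison has a replicate error and no p-value is given. The SD printed beside a region is over its probes on 1 array. The purity of the epithelial cells could not be checked, since the files give a position for a probe but no gene name and no source used here names the genome build. For the same reason regions are named by the coordinates that the array files state, without genes, exons or introns and without sequence.

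The arrays differed in quality. Median net immunoprecipitate intensity was 485.5 at 7 weeks, 120.5 on the untreated 23-week array and 274 on the DSS array, and median net input intensity was 559, 219 and 495. Outlier flags were set on 2, 585 and 7 of 97651 probes. The interquartile range of the region values was 1.65, 2.26 and 1.30 log2 units, which is why regions were compared by percentile. A step of 8 points upward from percentile 50 spanned 0.23, 0.32 and 0.18 log2 units on these arrays. The 7-week array was scanned 439 days after the DSS array and 390 days after the untreated 23-week array, each on a slide of its own, so slide, scan and age cannot be told apart. Pearson correlations across all regions, which share probes and base composition, were 0.959 between 7 weeks and untreated 23 weeks, 0.961 between 7 weeks and DSS and 0.944 between the 23-week arrays.

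The members came from the middle of the 7-week range. Their median percentile was 48.8 at 7 weeks (21.2 to 85.1), 62.8 on the untreated 23-week array (50.0 to 95.6) and 65.3 after DSS (50.4 to 95.4). In log2 ratio their medians were -0.14, 0.22 and 0.27, against -0.12, -0.35 and -0.11 for all regions on the same arrays. At 7 weeks 146 members lay below percentile 50, and none did on either 23-week array, as the rule required. Regions at or above percentile 75 numbered 10 at 7 weeks, 22 on the untreated 23-week array and 38 on the DSS array. Most members therefore moved from average enrichment to moderate enrichment, and few reached the levels of the most strongly marked islands.

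**Figure D1:**
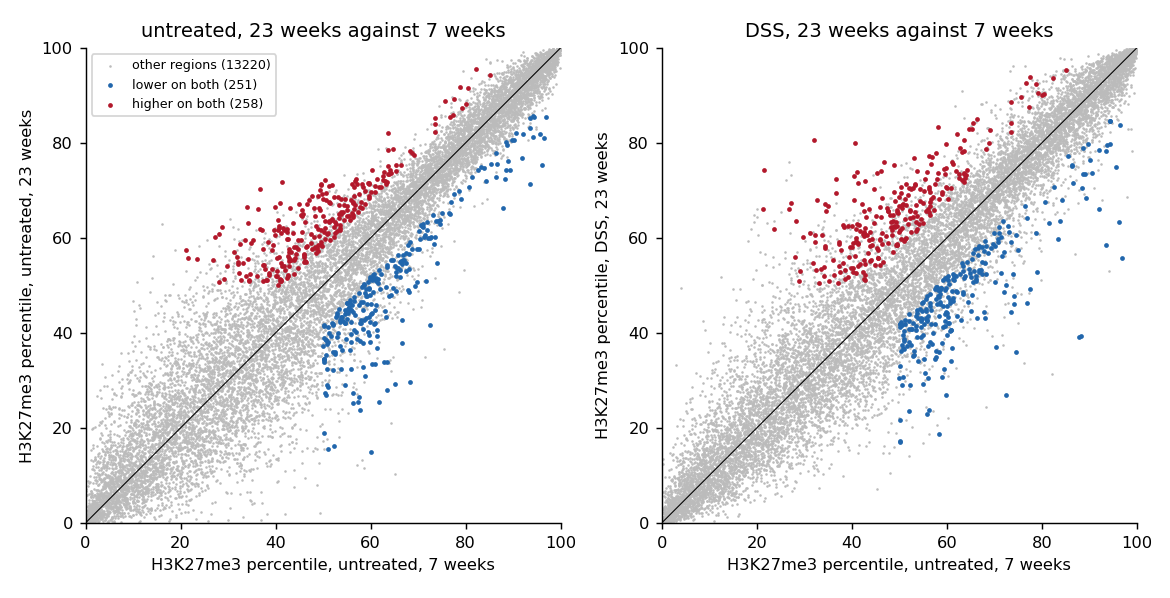
H3K27me3 percentile of 13729 autosomal regions on the untreated 23-week array (left) and the DSS array (right), each against the 7-week array; every point is 1 region and the line marks equal percentiles. The 258 members (red) form a band above the line from percentile 21.2 to 85.1 at 7 weeks, and the 251 regions that met the mirrored rule (blue) form a band below it.

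The median difference of the members from 7 weeks was 12.8 points in untreated mice and 15.4 points after DSS. The smaller of both differences had a median of 11.7 points and reached 36.3. After each array was centred on its median and scaled to a common interquartile range, the median differences were 0.48 and 0.53 log2 units. Only 3 members differed by at least 1 such unit on both arrays, against 17 of all 13729 regions. The other members differed by less on at least 1 of the arrays.

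The opposite pattern was about as frequent. The mirrored rule, percentile 50 or higher at 7 weeks and at least 8 points lower on both 23-week arrays, held for 251 regions (1.83%). Taken 1 array at a time, 733 regions (5.34%) were higher on the untreated 23-week array and 910 (6.63%) on the DSS array by the same 8 points and the same floor. Of these, 475 were higher in the untreated mice only and 652 after DSS only. The members thus made up 258 of 733 and 258 of 910 regions. Since both lists share the 7-week array, no overlap statistic is given. The membership depended on the processing: 136 of the 258 members still met the rule after normexp background correction, 122 in the deposited ratio table, 65 with the mean of probes and 48 after loess normalization within each array.

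The rule asked for a high level on both 23-week arrays and passed more regions on the DSS array, so the choice itself favours both like levels and a higher DSS value among members. The DSS percentile lay within 8 points of the untreated 23-week percentile in 205 members (79.5%, against 68% of all regions). It was at least 8 points higher after DSS in 44 members and at least 8 points lower in 9. Over all 13729 regions these counts were 2196 and 2198. The DSS value was the higher one in 159 members (61.6%, against 49.3% of all regions). The widest excess after DSS was at chr11:119026631-119027040, with percentiles of 32.1 at 7 weeks, 54.9 on the untreated 23-week array and 80.5 with DSS. The widest excess in the untreated mice was at chr1:172939151-172939426, with 40.9, 67.3 and 52.5. Both have 3 probes and were chosen after their values were seen. The former exceeded its 7-week level on both arrays of older mice but reached the upper ranks only after DSS.

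Leading members were taken from those with at least 4 probes of which at least 80% were higher in probe percentile on both 23-week arrays. There were 61 such members. Without the limit on probe number, at least 80% of probes were higher in 84 of the 258 members and in 517 of all 13729 regions. The region medians that chose the members were made from these probes, so these counts follow in part from the choice. The 12 with the largest smaller difference (20.4 to 27.8 points) are described here. On the 7-week array they lay between percentiles 28.1 and 42.9, on the untreated 23-week array between 50.8 and 66.2, and on the DSS array between 53.3 and 79.9. The lowest 23-week level of the 12 was thus above the highest 7-week level, a separation that the choice of members favours. The DSS value was above the untreated 23-week value in 6 of the 12. Under the 6 alternative processings of the closing section, the 12 met the rule in a median of 4 (2 to 6).

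The region at chr12:4785869-4786496 had the largest smaller difference of the 12. Its 5 probes gave a median log2 ratio of -0.69 ± 0.73 (SD over probes) at 7 weeks, 0.11 ± 0.52 on the untreated 23-week array and 0.03 ± 0.38 on the DSS array, or percentiles 28.1, 60.8 and 56.0. It rose past the middle of the ranking on both arrays of older mice. Its 5 probes were all higher on both, but unevenly. The probe at -155.5 bp from the centre moved from probe percentile 50.6 to 52.7 and 55.1, while the probe 116 bp after the centre moved from 29.4 to 53.4 and 47.1. After loess normalization its smaller difference was -0.94 points.

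At chr7:45792239-45792671 the 4 probes moved more evenly in untreated mice but less evenly after DSS, from percentiles of 29.2 to 35.9 at 7 weeks to 50.9 to 55.9 on the untreated 23-week array and 38.8 to 62.0 after DSS. The region's log2 ratio was -0.51 ± 0.13, 0.24 ± 0.11 and 0.07 ± 0.31 (SD over 4 probes). The difference from 7 weeks exceeded the spread among its probes in both comparisons. This region met the rule in all 6 alternative processings that are described in the closing section.

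The region at chr10:62587737-62588111 also rose in each of its 4 probes on both arrays. Its log2 ratio was -0.29 ± 0.37 at 7 weeks, 0.42 ± 0.10 on the untreated 23-week array and 0.24 ± 0.15 on the DSS array (SD over 4 probes), at percentiles 42.9, 66.2 and 64.5. The probe at -45 bp from the centre moved least on the untreated array, from probe percentile 56.6 to 59.98, and to 64.6 after DSS. The outermost probes rose from probe percentile 36.4 to 55.0 and 51.9 on one side and from 35.3 to 58.2 and 53.1 on the other. It too met the rule in all 6 alternatives.

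Another 3 of the 12 were among the 6 with a higher value after DSS than in the untreated mice at 23 weeks. The region at chr12:14177298-14177881 had percentiles of 40.6, 61.6 and 79.9, the highest DSS level of the 12. The region at chr10:93275630-93276282 had 40.5, 63.8 and 73.0, and the region at chr19:58852597-58853155 had 34.9, 58.9 and 66.7. The level after DSS exceeded the untreated 23-week level by 18.3, 9.27 and 7.84 points, and with 1 pool each these differences have no replicate check. After loess the smaller difference at chr12:14177298-14177881 was -11.5 points.

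At chr6:143790568-143790928 the percentiles were 31.9, 56.0 and 54.7, and at chr16:49618588-49619371 they were 40.8, 62.2 and 61.8. At chr8:37926221-37926974 they were 29.8, 54.2 and 60.2, and at chr1:57322006-57322657 they were 28.2, 50.8 and 63.5. The last of these only just passed percentile 50 in the untreated mice, and its level after DSS was 12.8 points higher. The regions at chr15:74626917-74627309 (32.5, 58.8 and 53.3) and chr13:12574643-12575041 (32.2, 52.6 and 59.1) completed the 12. The smaller difference was -0.69 points after loess at chr8:37926221-37926974 and -1.12 points in the deposited ratio table at chr16:49618588-49619371.

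**Figure D2:**
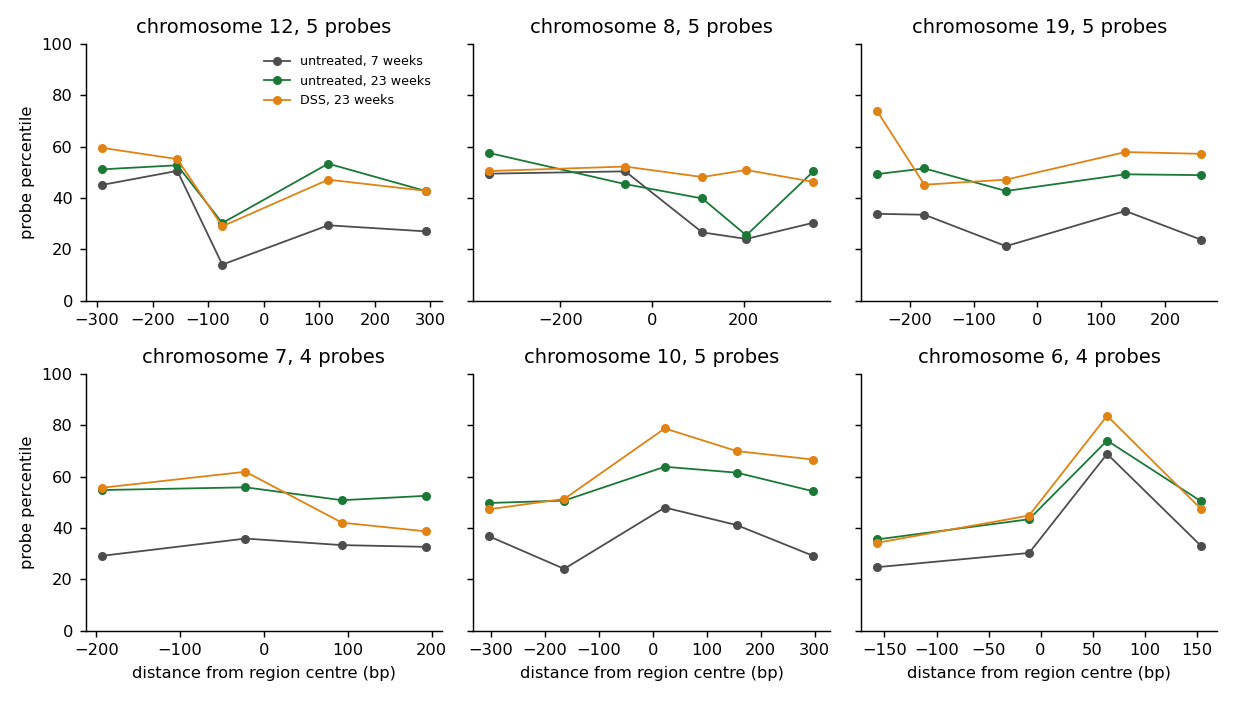
Probe percentile against distance from the region centre in bp, for the first 6 of the 12 leading members (1 region per panel). Percentiles are among the 93029 autosomal probes that fell into regions, on each array. The leading members were chosen among members with at least 80% of probes higher. Points are single probes and colours the 3 arrays: in 5 of the regions every probe on both 23-week arrays (green, orange) lies above its 7-week value (grey), and in the chromosome 8 region 4 of 5 probes do.

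The 5 members with the highest 23-week levels were already enriched at 7 weeks. The region at chr15:78794916-78795365 stood out, with a log2 ratio of 1.32 ± 0.39 at 7 weeks, 2.49 ± 0.30 on the untreated 23-week array and 1.51 ± 0.43 on the DSS array (SD over 5 probes), or percentiles 82.3, 95.6 and 93.6. All 5 probes were higher in rank on both 23-week arrays, and the region met the rule in all 6 alternatives. The region at chr2:158066912-158067242 ranked highest at 7 weeks of all members, at 85.1, and reached 94.2 and 95.4. The regions at chr5:118432653-118433083 (78.9, 91.7 and 92.4), chr5:135773405-135774132 (80.5, 91.6 and 90.3) and chr18:25896076-25896658 (77.6, 89.3 and 93.9) followed. On the DSS array the immunoprecipitate percentile was below its 7-week value at chr5:118432653-118433083 (61.2 against 63.0) and chr2:158066912-158067242 (53.4 against 57.2). In the others of the 5 it was above. Near the top of the ranking 8 points is a large step, since from percentile 90 it spans 0.79 log2 units at 7 weeks, 0.64 on the untreated 23-week array and 0.61 on the DSS array.

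Another 11 members entered the top 25% on both arrays of older mice. They lay between percentiles 63.6 and 73.5 at 7 weeks. The one with most probes, chr2:173228384-173229867, had 11 probes, 9 of them higher on both 23-week arrays. Its percentiles were 63.6, 78.6 and 80.6 and its log2 ratio 0.29 ± 0.68, 1.39 ± 0.52 and 0.88 ± 0.38 (SD over probes). The region at chr7:99879833-99880222, with 63.7, 82.2 and 78.2 over 3 probes, met the rule in all 6 alternatives. Both were chosen among the 11 after their values were seen.

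**Figure D3:**
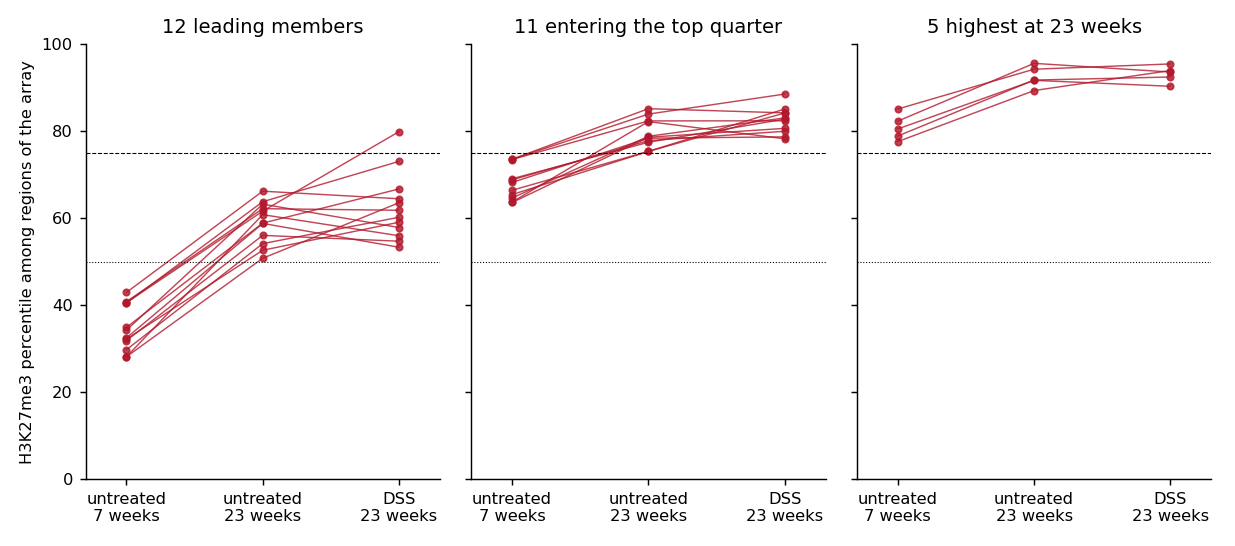
H3K27me3 percentile on the 3 arrays for the 12 leading members (left), the 11 members that entered the top 25% on both 23-week arrays (middle) and the 5 members with the highest 23-week levels (right); each line is 1 region, with dotted and dashed lines at percentiles 50 and 75. The leading members start between 28.1 and 42.9 and the 5 highest between 77.6 and 85.1.

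The 3 members that differed by at least 1 scaled log2 unit on both arrays were chosen after their values were seen. At chr8:42397754-42398174 the percentiles were 21.2, 57.5 and 66.2, the lowest start and the largest smaller difference of all members, and its 3 probes were higher on both arrays. At chr9:107051562-107052015 they were 41.3, 71.7 and 71.5, again with all 3 probes higher. At chr15:38022580-38023751 they were 36.7, 70.2 and 69.5, but only 3 of its 9 probes were higher on both. There the probe at -399.5 bp from the centre went from probe percentile 34.5 to 65.8 and 67.0, and the median of the region moved although the lowest probes stayed low, at 9.70, 8.10 and 2.05 and at 2.81, 4.90 and 2.05.

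Long members showed the same unevenness. The member with most probes, chr12:68139166-68141556, had 18 probes over 2391 bp and was strongly marked on every array, at percentiles 80.002, 88.2 and 90.0. In it 12 of 18 probes were higher on both 23-week arrays, most of them from the sixth probe onward. At chr4:8617174-8619442 (15 probes) the percentile went from 41.8 to 61.7 and 61.5, yet only 5 of 15 probes were higher on both. The counts were 3 of 15 at chr4:154734896-154736577, 7 of 15 at chr11:32354515-32356231 and 8 of 13 at chr17:65682055-65683642. The smaller difference of these 5 regions was between 8.23 and 19.7 points. It fell below 0 after loess at chr17:65682055-65683642 (-6.03) and under 3 of the alternatives at chr4:154734896-154736577 (-5.30, -6.51 and -3.01).

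Over all members, 862 of 1419 probes (60.7%) were higher in probe percentile on both 23-week arrays, against 29.4% of the probes of all regions. The region medians that chose the members were made from these probes, so this share follows in part from the choice. All probes rose in 60 members (23.3%, against 2.24% of all regions). In 87 members no more than 50% of the probes rose, as in 11723 of all 13729 regions. A rise along the whole island was thus the case for fewer than 1 in 4 members.

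The immunoprecipitate and input channels were also read singly. The immunoprecipitate percentile of the members was higher than at 7 weeks by a median of 7.39 points in untreated mice and 4.98 points after DSS, and it was higher on both arrays in 178 members (69%, against 24.4% of all regions). The input percentile differed by a median of 0.16 and -0.73 points, against 0.90 and 0.07 points over all regions. It was lower on both arrays in 69 members (26.7%, against 26.1% of all regions). In 55 members it was higher on both (21.3%, against 30.6% of all regions). Other regions between percentiles 40 and 70 at 7 weeks, which met neither the rule nor its mirror, are nearer in starting level. Among these the input percentile was higher on both arrays in 22.7% and lower on both in 34%. Among the 12 leading members the immunoprecipitate was higher on both arrays in 11 and the input lower on both in 1. In regions that met the mirrored rule the immunoprecipitate was lower on both arrays in 144 (57.4%, against 21.8% of all regions). Their input percentile differed by a median of 0.19 points in untreated mice and 0.17 points after DSS. The ratio that chose the members and the mirrored regions is made from both channels, so these shares follow in part from the choice. The members' ranks differed from 7 weeks more in the immunoprecipitate channel than in the input.

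Several properties that the rule did not use were compared with all regions. Members were shorter, with a median length of 514 bp against 665 bp, and had a median of 5 probes against 6. Regions that met the mirrored rule had a median of 680 bp and 6 probes. The share of regions that were members was 3.89% at 3 probes, 1.68% at 4, 3.03% at 5, 1.03% at 6 and 0.765% at 15 or more. For the mirrored rule these shares were 2.13%, 1.25%, 1.93%, 2.01% and 1.72%. Regions with an odd number of probes were members in 2.53% of cases and those with an even number, whose median averages the middle pair, in 1.19%. The corresponding mirrored shares were 2.16% and 1.47%. In regions of 3 probes the differences between arrays had an SD of 10.0 points in untreated mice and 9.74 points after DSS, against 6.47 and 6.69 points in regions of 15 or more. What part this spread has in the excess of short members was not tested.

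Members were also unevenly spread over the starting level. Of the regions between percentiles 40 and 50 at 7 weeks, 97 (7.07%) were members, and of those between 50 and 60, 72 (5.24%). Between 20 and 30 there were 10 members and between 80 and 90 there were 4, with none below 20 or above 90. The rule itself limits both ends, through the floor at percentile 50 and through the room left above.

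**Figure D4:**
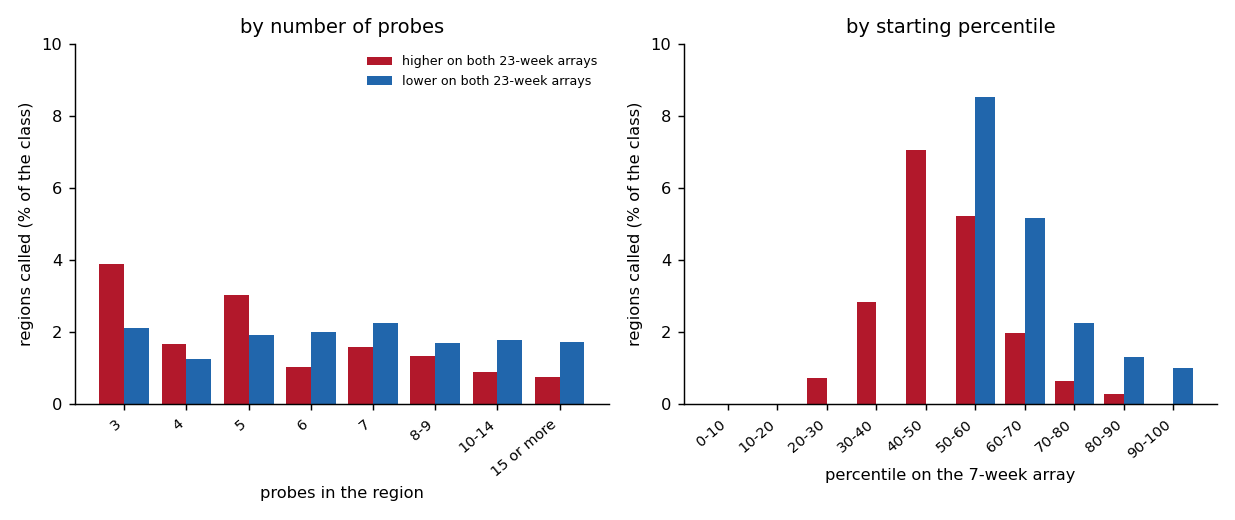
Regions higher (red) and lower (blue) on both 23-week arrays, as a percentage of all regions of the class, by number of probes (left) and by percentile on the 7-week array (right). The share of higher regions is 3.89% at 3 probes and 0.765% at 15 or more, and it is highest, 7.07%, for regions that started between percentiles 40 and 50.

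By chromosome, the share of members ran from 0.767% on chromosome 18 (3 of 391 regions; 95% Wilson interval 0.261% to 2.23%, for counting error only) to 2.71% on chromosome 12 (14 of 517; 1.62% to 4.49%). These intervals overlap. Chromosome 12 had 14 members and 1 region that met the mirrored rule, whereas chromosome 2 had 23 and 25 and chromosome 4 had 22 and 26. The 14 on chromosome 12 included a pair of the leading members and the member with most probes. Over all regions of chromosome 12 the median difference was 0.25 points in untreated mice and 0.14 points after DSS, so the chromosome as a whole was not shifted by an amount near the 8 points of the rule.

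Another region lay within 20 kb of 90 members (34.9%, against 42.9% of all regions and 37.6% of the other regions between percentiles 40 and 70 at 7 weeks). When member starts within 20 kb were joined, 254 members stood alone and 2 pairs remained, both on chromosome 2. With members at 1.88% of regions, few neighbours would be members in any case, and nothing is read from this count. The first pair was chr2:165079099-165079586 (62.8, 73.8 and 78.9) and chr2:165087213-165087534 (50.0, 68.1 and 68.6). In this pair all 5 and all 3 probes were higher on both arrays of older mice. The second pair was chr2:168443630-168443922 (59.8, 71.3 and 79.8) and chr2:168447035-168447459 (53.2, 66.8 and 65.4), with 2 of 3 and 5 of 5 probes higher. For the mirrored rule 240 regions stood alone, with 4 pairs and 1 triple.

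The regions next to members did not stand out from all regions. Of 109 next regions within 20 kb, 33 (30.3%) were higher than at 7 weeks on both arrays by any amount, against 30.3% of all regions. Within 5 kb the median difference of 32 such neighbours was 2.44 points in untreated mice and -1.50 points after DSS. Between 5 and 20 kb it was -0.34 and -0.21 points over 77 neighbours. The interquartile ranges of these differences spanned 0 in both distance classes on both arrays.

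The same rule was also read on probes that had no part in a choice, mostly in regions other than the members. In the 7582 regions with at least 6 probes, regions were chosen by the same rule on alternate probes and read on the others, which come from the same hybridisations. Members with fewer probes were left out. Regions chosen on the odd-ranked probes overlapped 30 of the 258 members, and those chosen on the even-ranked probes 35. This is 20.8% and 20.2% of the chosen regions. Of 144 regions chosen on the odd-ranked probes, 57 (39.6%) were higher on both arrays by any amount on their even-ranked probes, against 30.6% of all such regions. Of 173 chosen on the even-ranked probes, 80 (46.2%) were higher on the odd-ranked ones, against 30.2%. The median differences on the probes not used were 1.29 and 1.33 points in the former and 2.35 and 3.06 points in the latter, well below the 8 points of the rule. On the probes not used, 29.2% and 16.2% of the chosen regions were lower on both arrays, against 31.2% and 31.4% of all such regions. The rule was met on both sets of probes by 16 regions, which is 11.1% and 9.25% of the chosen regions. Of all such regions, 2.28% met it on the even-ranked probes and 1.90% on the odd-ranked ones. Shares over all regions are not matched to the chosen regions in starting level. With all probes the rule passed 7.07% of regions between 7-week percentiles 40 and 50, and none below 20 or above 90. What part the starting level has in these differences was not tested. In regions that met the mirrored rule the same reading gave lower values on both arrays in 42.1% and 42.7%, against 31.2% and 31.4% of all such regions. The mirrored rule was met on both sets by 9 regions, which is 5.92% and 5.26% of those chosen by it.

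**Figure D5:**
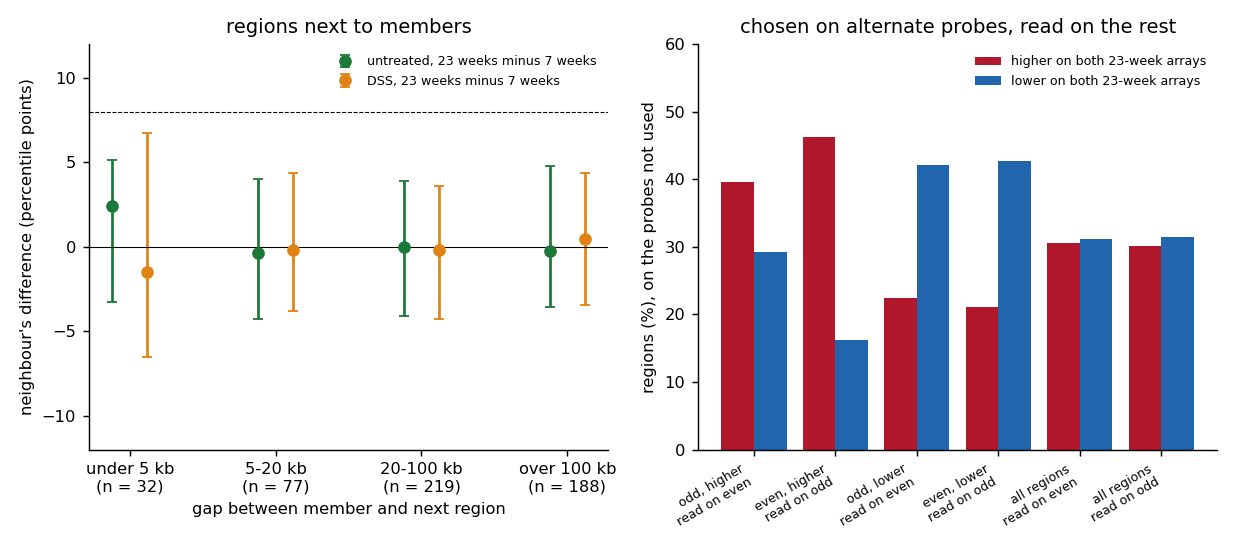
Left, median (points) and interquartile range (bars) of the differences from 7 weeks, in percentile points, for the regions next to members by gap in kb, with the 8 points of the rule as a dashed line. Right, percentage of regions that were higher (red) or lower (blue) on both 23-week arrays on the probes not used to choose them; of regions chosen as higher, 39.6% and 46.2% were higher on the other probes, against 30.6% and 30.2% of all regions.

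At the threshold itself members and other regions had similar levels. Just inside, the smaller difference was 8.03 points at chr13:93945390-93945832 (percentiles 53.5, 61.7 and 61.5), 8.06 at chr9:14610366-14610850 (60.2, 74.4 and 68.3) and 8.08 at chr11:113434828-113435809 (52.2, 60.3 and 64.2). Just outside, it was 7.998 at chr8:37055998-37057255 (52.7, 62.8 and 60.6), 7.98 at chr17:46116060-46116465 (51.5, 59.5 and 75.7) and 7.98 at chr1:52575104-52575533 (53.1, 61.1 and 62.2). No step in level separated the former from the latter.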

How the data were processed

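The scanner files hold spot intensities, which the authors read out with Agilent Feature Extraction (10.7.3.1 in the file headers, 9.1 in the submitters' processing notes). Per the file headers, processed intensities had background subtracted and 1 linear factor applied to each dye. The log10 ratio that the authors deposited equals that of red over green within 0.001 at over 99.9% of probes. A deposited table of linear ratios, for which no source used here states the steps, served as an alternative. Here log2 of red over green processed intensity was taken for 94499 autosomal probes, without loess, and 93029 of them fell into regions. Probes without a position and those on chromosome X were left out. No difference was tested, as each group had 1 array.

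Named regions were the 12 of at least 4 probes with the largest smaller difference and at least 80% of probes higher, the 5 with most probes, the 5 with the highest levels, members grouped within 20 kb and 3 regions on either side of the threshold. Regions outside this rule are marked as chosen after their values were seen. The members and lists were chosen with earlier results of these data known. The code of the region rule was run on simulated data with independent probe noise of the same size on each array. That checks the code only, since the real arrays differ in spread and quality. The GRCm38 gene table was not used, because on 7 of 20 chromosomes probe positions ran past its last gene. Alternatives changed probe filters, background correction, normalization, summary, joining distance, thresholds and floor. Python 3.11.15, pandas 2.3.3, R 4.3.3 and limma 3.58.1 were used.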

Additional observations from a re-analysis of the deposited data

Results flagged for a closer look

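Chromosome X lay outside the regions analysed. Ranked together with the autosomal regions, 16 of its 390 regions (4.10%) met the rule and 3 (0.769%) met the mirrored rule, against 1.88% and 1.83% of autosomal regions. The difference from 7 weeks over all X regions had a median of 1.74 points in untreated mice and 0.74 points after DSS, and 149 of them (38.2%) were higher on both 23-week arrays by any amount, against 30.3% of autosomal regions. The X region with most probes among the 16 had 13, with percentiles of 37.4 at 7 weeks, 55.5 on the untreated 23-week array and 56.5 on the DSS array. The X region that ranked highest at 23 weeks went from 83.4 to 92.0 and 92.9.

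Probes for which the files state no position were read singly. Of 442 such probes, 35 (7.92%) met the rule and 27 (6.11%) its mirror, against 2.85% and 2.95% of autosomal probes read the same way.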

How the results depend on the processing

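The arrays number 1 per group, so nothing was left out in turn. No paired analysis was possible because a single array per group leaves no pairs. Of 47 recomputed counts, 26 stayed within 1.5 times the reported one. Members numbered 390 after normexp correction (lower on both, 442), 435 after loess (661) and 144 with probe means (97). They numbered 525 at 5 points (599), 122 at 12 points (82), 545 with a floor at percentile 25 (507), 21 with a floor at 75 (38) and 144 on odd-ranked probes (152). The last count comes from 7582 regions instead of 13729 and is 1.90% of them, against 1.88% in the reported setting. Loess gave 1708 regions higher in untreated mice at 23 weeks and 32 entering the top 25%. Probe means gave 407 for the untreated mice, 561 for DSS and 3 entering the top 25%.

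Of the 258 members, 253 still met the rule without probes with an outlier flag, 200 without dim probes as well, 136 after normexp, 48 after loess, 122 in the deposited ratio table and 65 with probe means. Higher on both by any amount were 256, 250, 236, 163, 219 and 217. All 6 settings kept 12 members, and at least 4 kept 107. Members were the larger list with probe means (144 against 97) and the smaller one after loess (435 against 661).

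Of 130 recomputed smaller differences of named regions, 91 moved by less than the spread among probes, 31 moved further and 8 changed sign. Among the 31, loess left 2.27 points at chr10:93275630-93276282, 1.28 at chr13:12574643-12575041, 1.14 at chr4:8617174-8619442 and 0.31 at chr2:168443630-168443922, and probe means left 1.02 at chr4:8617174-8619442. The sign changed as follows. After loess it was -0.94 at chr12:4785869-4786496, -0.69 at chr8:37926221-37926974, -11.5 at chr12:14177298-14177881 and -6.03 at chr17:65682055-65683642. In the deposited table it was -1.12 at chr16:49618588-49619371. At chr4:154734896-154736577 it was -5.30 after normexp, -6.51 in the deposited table and -3.01 with probe means. The cause was not tested. On the untreated 23-week array 4952 of 97651 probes were not well above background in at least 1 channel. This count was 2391 at 7 weeks and 3783 on the DSS array.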

Other observations

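The 12 members that met the rule under all 6 alternative processings were spread over 10 chromosomes. They include, beside those named above, chr6:84100637-84101471 (percentiles 51.2 at 7 weeks, 70.9 on the untreated 23-week array and 68.1 on the DSS array, 5 probes), chr12:72236521-72237373 (49.2, 66.3 and 67.8, 8 probes) and chr17:23868756-23869587 (41.2, 61.0 and 62.9, 7 probes). The shortest, chr9:42075934-42076154, spans 221 bp and went from 49.6 to 71.1 and 65.4. These were chosen after their values were seen.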
